A study of Arabidopsis thaliana with 9 samples.

Results

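The PLETHORA, BABY BOOM and ANT genes encode AP2-type transcription factors of Arabidopsis. The 8 genes described here were chosen by locus: PLT1 (AT3G20840), PLT2 (AT1G51190), PLT3, also called AIL6 (AT5G10510), BBM (AT5G17430), PLT5, also called AIL5 (AT5G57390), PLT7, also called AIL7 (AT5G65510), ANT (AT4G37750) and AIL1 (AT1G72570). The annotation gave no symbol to the locus of AIL1, which is named here as the choice of genes named it. All 8 were on the array, among 30361 genes.

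The proteins of this family keep cells dividing and undifferentiated. PLT1 and PLT2 are known as dose-dependent regulators of the root stem cell niche, where they are expressed in response to auxin and oppose differentiation. PLT3, PLT5 and PLT7 act in lateral root formation and in leaf positioning at the shoot apex, ANT drives the growth of leaves and floral organs, and BBM is an embryo and root meristem regulator whose forced expression gives somatic embryos on seedlings.

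Transcripts were measured in whole 12-day-old seedlings grown on MS agar, in 3 genotypes with 3 pools of 10 to 12 plants each and 1 NimbleGen array per pool. The clf swn seedlings carried clf-7 and swn-28 according to the labels, although the growth protocol gives swn-7 and clf-28. Both mutated genes, CLF and SWN, encode histone methyltransferases of Polycomb Repressive Complex 2 (PRC2), which deposits the repressive mark H3K27me3. This double mutant is sterile and was picked among the progeny of segregating plants. The siFIE seedlings were T1 transformants with an RNAi construct that targets FIE, the core PRC2 subunit that both methyltransferases depend on, selected on kanamycin at 50 mg/L and picked for an intermediate phenotype. Which promoter drives the construct is not stated. The methods place siFIE in Col whereas the labels name C24, so that ecotype, selection and FIE knock-down cannot be told apart in that comparison. The Col seedlings were the wildtype of all comparisons, and nothing says whether the pools of a genotype were grown apart, so the errors may in part be technical.

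Values are RMA signals, which are background-corrected, normalised and summarised over the 2 or 3 probes of a gene, on a linear scale with arbitrary units. Levels are therefore compared between genotypes and not between genes. Median RMA signals of the 9 arrays lay between 1115.7 and 1168.7. Arrays of 1 genotype correlated at 0.991 to 0.994 (Pearson's r of log2 signals across genes, a description only) and arrays of different genotypes at 0.915 to 0.978. FIE read 243.9, 281.2 and 320.6 in siFIE against 1976, 1768 and 1786 in Col. CLF read 3744, 4447 and 3852 in clf swn against 11774, 12348 and 10798 in Col, and SWN read 179.8, 391.8 and 117.8 in clf swn against 11186, 11516 and 11643 in Col. The targeted transcripts were thus low in the genotype that targets them on every array. The FIE probe at position 125 went the other way, with a log2 difference of 2.47 between siFIE and Col, while the probes at positions 357 and 1204 gave -2.94 and -1.90. In 3 other summaries, which took the mean of the log2 probe signals in place of RMA, with normexp background correction (scaled by quantiles or by medians) or without correction, the FIE decrease was 0.79 to 0.85 on the log2 scale and not called.

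Genomic sequence was at hand for 2 of the 8 genes. Among peaks of at least 300 bases, AIL1 and PLT5 were the members under a gene-body peak of FIE-HA (a tagged FIE protein) and H3K27me3. These peaks come from the ChIP-seq peak list of the study, made in C24 seedlings, in a copy that may be incomplete. For the FIE-HA ChIP the results of the study name aerial tissue, whereas its methods name whole seedlings. The tissue may thus differ from that of the arrays. Shorter peaks and the list of all H3K27me3 peaks were not searched. The first 300 bases of the peaks of AIL1 and PLT5 are shown because no other member was matched. They run from chr1:27331510-27331809 for AIL1 and from chr5:23255410-23255709 for PLT5 (TAIR9, letters as listed, strand not given). Capitals mark GAGAG or its reverse complement CTCTC, a short GAGA-type motif.
AIL1: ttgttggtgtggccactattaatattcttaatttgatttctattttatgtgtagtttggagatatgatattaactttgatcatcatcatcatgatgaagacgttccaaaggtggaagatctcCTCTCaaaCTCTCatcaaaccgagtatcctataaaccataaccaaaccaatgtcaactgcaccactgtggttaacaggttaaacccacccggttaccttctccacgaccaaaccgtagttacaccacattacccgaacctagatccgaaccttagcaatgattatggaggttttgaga
PLT5: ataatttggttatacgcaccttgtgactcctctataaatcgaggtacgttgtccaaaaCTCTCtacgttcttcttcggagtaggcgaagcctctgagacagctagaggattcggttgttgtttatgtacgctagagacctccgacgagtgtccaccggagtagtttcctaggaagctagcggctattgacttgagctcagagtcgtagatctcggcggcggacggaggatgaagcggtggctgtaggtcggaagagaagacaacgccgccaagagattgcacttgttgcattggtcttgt
The AIL1 stretch held 2 matches and the PLT5 stretch 1. Such a match was found in the first 300 bases of 456 of the 703 listed peaks of at least 300 bases (64.9%), so that its presence sets neither gene apart. The longer GAGAGA (or TCTCTC), which overlaps with GAGAG, was present in 38.8% of these stretches and in neither of the 2 shown, and AAACCCTA (or TAGGGTTT) in 14.9% and in neither. A match is a run of letters and no evidence of binding.

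In clf swn seedlings 5 of the 8 genes rose and 1 fell relative to Col. PLT3, BBM, PLT5, PLT7 and AIL1 were higher, by 3.28-fold to 161-fold, and PLT1 was lower, by 5.17-fold. ANT and PLT2 differed from Col by less than the 2-fold threshold. Calls required more than 2-fold and a limma p under 0.05 after Benjamini-Hochberg adjustment across the array. By this rule 21.6% of all genes were called in clf swn, 8.78% as higher and 12.8% as lower. The median log2 change of the 8 genes was 1.99, against 0.05 over all genes. In siFIE seedlings only AIL1 of the 8 was called, as higher, where 7.7% of all genes were called, 4.51% as higher and 3.19% as lower, and the median was 0.12 against -0.02 over all genes. Whole seedlings were used, so fewer cells of a type and less RNA per cell cannot be told apart in any of these values.

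**Figure D1:**
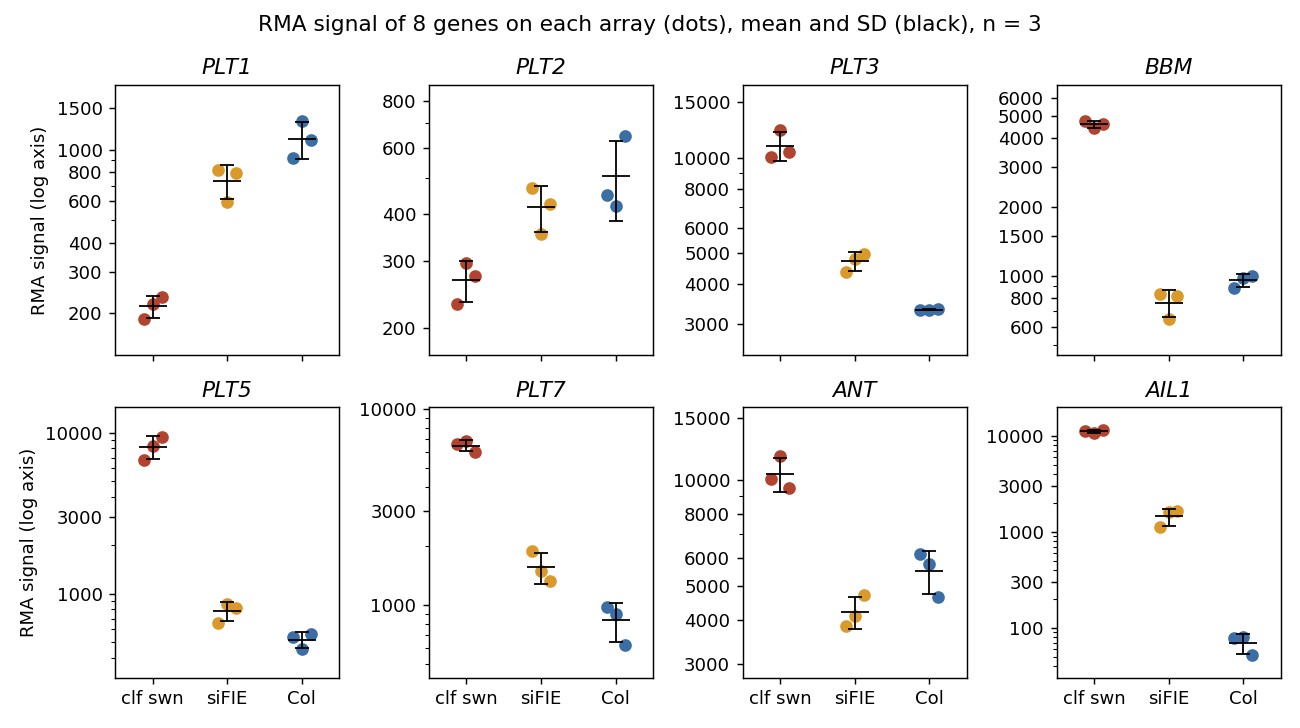
RMA signal (log axis, arbitrary units, a separate scale for each gene) of the 8 genes in clf swn, siFIE and Col, with a dot for each array and black bars for the mean and SD of 3 arrays. The clf swn dots lie apart from the Col dots for all 8 genes, above them for 6 and below them for PLT1 and PLT2.

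Among the root stem cell regulators, PLT1 was the member that fell. Its signal was 189.1, 218.5 and 234.5 in clf swn (214 ± 23.0, SD, n = 3) and 924.6, 1319 and 1096 in Col (1113 ± 198, SD, n = 3). All clf swn arrays lay below all Col arrays. The log2 change was -2.37 (SE 0.17, 95% interval -2.76 to -1.98, adjusted p = 3.8e-06 by limma). In siFIE the signal was 814.7, 599.5 and 796.2 (737 ± 119, SD, n = 3), a log2 change of -0.59 from Col (adjusted p = 0.0403), which is 1.51-fold lower and under the fold threshold. The order of the levels was clf swn, siFIE, Col from low to high, with no overlap between neighbours. The difference between clf swn and siFIE was itself called (log2 -1.78, adjusted p = 3.8e-05), but not in the summary of probe signals without background correction (log2 -0.97), where the change of clf swn from Col was -1.38 and still called.

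PLT2, which shares much of its function with PLT1, had the same order with smaller gaps. It read 231.7, 296.9 and 273.9 in clf swn (268 ± 33.1, SD, n = 3), against 449.9, 420.8 and 643.7 in Col (505 ± 121, SD, n = 3). These groups did not overlap, and limma gave a log2 change of -0.90 (SE 0.19, 95% interval -1.32 to -0.48, adjusted p = 0.00333), which is 1.86-fold lower and was not called. Without the second Col array the log2 change was -1.02 and the gene was called. The siFIE arrays, at 470.3, 355.1 and 426.2 (417 ± 58.1, SD, n = 3), overlapped with Col (log2 change -0.26, 95% interval -0.68 to 0.16, adjusted p = 0.391). PLT2 was the member with no called change in any comparison, and clf swn differed from siFIE by -0.64 on the log2 scale (adjusted p = 0.0216).

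PLT3 supports root meristems together with PLT1 and PLT2 and also acts in flowers and at the shoot apex. Unlike them it was higher in clf swn, with 10115, 12277 and 10468 (10953 ± 1160.1, SD, n = 3), than in Col, with 3311, 3323 and 3337 (3324 ± 12.8, SD, n = 3). The 3 Col values were very close to each other, and all clf swn values lay above them. The log2 change was 1.72 (SE 0.11, 95% interval 1.46 to 1.97, adjusted p = 2e-06), or 3.28-fold. The siFIE arrays, at 4355, 4815 and 4985 (4718 ± 326, SD, n = 3), stood between the other genotypes without overlap, at a log2 change of 0.50 from Col (adjusted p = 0.0131), 1.42-fold and below the fold threshold.

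BBM, the embryo regulator, separated clf swn from both other genotypes. Its signal was 4758, 4437 and 4639 in clf swn (4611 ± 162, SD, n = 3), against 885.3, 983.8 and 1004 in Col (958 ± 63.4, SD, n = 3). This is a rise of 4.82-fold (log2 2.27, SE 0.13, 95% interval 1.98 to 2.55, adjusted p = 6.1e-07). In siFIE it was 832.8, 646.8 and 815.0 (765 ± 103, SD, n = 3). All 3 siFIE values lay below all Col values, at a log2 difference of -0.33 (95% interval -0.62 to -0.05) that missed the threshold (adjusted p = 0.102). The gap between clf swn and siFIE was 6.07-fold (log2 2.60, adjusted p = 4e-07).

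PLT5 and PLT7, which act in lateral root primordia and in leaf positioning, both rose in clf swn. PLT5 read 6773, 8293 and 9404 in clf swn (8157 ± 1320.5, SD, n = 3) and 535.1, 455.7 and 564.3 in Col (518 ± 56.2, SD, n = 3), a difference of 15.7-fold (log2 3.97, SE 0.16, 95% interval 3.60 to 4.34, adjusted p = 7.8e-08). PLT7 read 6604, 6886 and 6034 in clf swn (6508 ± 434, SD, n = 3) and 977.0, 901.2 and 624.2 in Col (834 ± 186, SD, n = 3), a difference of 7.93-fold (log2 2.99, SE 0.19, 95% interval 2.56 to 3.42, adjusted p = 1.5e-06). For both genes every clf swn array was far above every array of the other genotypes. The siFIE arrays gave 662.0, 867.1 and 816.6 for PLT5 (782 ± 107, SD, n = 3), above all Col arrays with a log2 change of 0.59 (adjusted p = 0.0312). They gave 1879, 1485 and 1324 for PLT7 (1563 ± 286, SD, n = 3), also above all Col arrays, with a log2 change of 0.92 (95% interval 0.49 to 1.35, adjusted p = 0.00854). Both stayed under the 2-fold threshold. PLT7 passed it without the first Col array (log2 1.04) or without the third siFIE array (log2 1.03). Between clf swn and siFIE the log2 differences were 3.38 for PLT5 (adjusted p = 3.7e-07) and 2.07 for PLT7 (adjusted p = 2.5e-05).

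ANT, the regulator of organ growth, had its lowest level in siFIE. It read 10065, 11716 and 9485 in clf swn (10422 ± 1158, SD, n = 3) and 6142, 5775 and 4644 in Col (5520.3 ± 781, SD, n = 3). The groups did not overlap, and the log2 change was 0.92 (SE 0.15, 95% interval 0.59 to 1.25, adjusted p = 0.00068), which is 1.89-fold and was not called. It reached 1.00 and was called without the first Col array. The siFIE arrays read 3834, 4089 and 4699 (4207 ± 444, SD, n = 3) and overlapped with Col (log2 change -0.39, 95% interval -0.72 to -0.05, adjusted p = 0.101). The direct comparison of clf swn with siFIE was called, at 2.48-fold (log2 1.31, SE 0.15, adjusted p = 9.3e-05).

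AIL1, a close relative of ANT about which less is known, differed most among the 8 and was the member called in both mutants. Its signal was 11220, 10564 and 11461 in clf swn (11082 ± 464, SD, n = 3), 1108, 1591 and 1635 in siFIE (1445 ± 292, SD, n = 3), and 77.99, 80.76 and 51.57 in Col (70.1 ± 16.1, SD, n = 3). The 3 genotypes were fully separated. The log2 change was 7.33 in clf swn (SE 0.20, 95% interval 6.87 to 7.79, adjusted p = 8.1e-09), or 161-fold, which ranked 94 among the rises of all genes. It was 4.37 in siFIE (SE 0.20, 95% interval 3.91 to 4.83, adjusted p = 1.7e-06), or 20.7-fold, which ranked 55. The step between the mutants was 7.78-fold (log2 2.96, adjusted p = 3.8e-06). In Col 22.8% of all genes had a lower mean signal than AIL1, so that its fold changes rest on a dim value, and they were smaller in all 3 summaries made from probe signals. The log2 change was 5.82 in clf swn and 3.03 in siFIE with normexp and quantile scaling, 5.84 and 2.95 with normexp and median scaling, and 5.04 and 2.38 without background correction, and all were called.

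**Figure D2:**
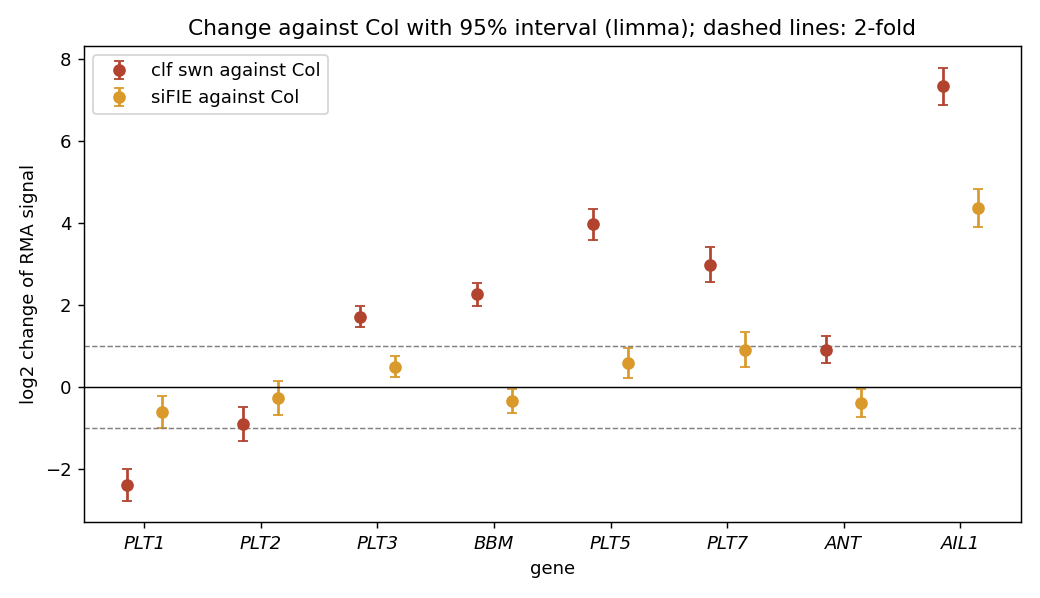
Log2 change of RMA signal against Col (vertical axis) for the 8 genes in clf swn and siFIE, with points for the limma estimate, bars for the 95% interval and dashed lines at 2-fold. AIL1 stands highest in both mutants, at 7.33 in clf swn and 4.37 in siFIE, and PLT1 is the member below the lower dashed line, at -2.37 in clf swn.

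Set side by side, the 2 mutants shared their Col arrays, so that their changes are not independent. The comparison of clf swn with siFIE, which tests the difference between the changes, called 7 of the 8 genes, 6 as higher and PLT1 as lower in clf swn, where 17.9% of all genes were called, 6.82% as higher and 11.0% as lower. Its median over the 8 genes was 1.69, against 0.06 over all genes. By adjusted p alone, with no fold threshold, all 8 members passed in clf swn against Col (46.8% of all genes). In siFIE against Col 5 passed (20.3%), and all 8 in clf swn against siFIE (41.5%). Among the 5 in siFIE, PLT1 and PLT5 were near the threshold, with limma adjusted p of 0.0403 and 0.0312. Arrays of clf swn and Col did not overlap for any of the 8 genes, 6 of them higher and 2 lower in clf swn, against 56.3% of all genes (30.0% higher and 26.4% lower). Between siFIE and Col 6 of the 8 did not overlap, 4 higher and 2 lower in siFIE, against 37.6% of all genes (18.4% higher and 19.2% lower), with PLT2 and ANT as the exceptions. Between clf swn and siFIE all 8 were apart, 6 higher and 2 lower in clf swn, against 52.5% of all genes (27.9% higher and 24.6% lower).

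The single probes of each gene moved in the same direction as the gene. In clf swn against Col the log2 differences of the probe signals, without background correction, were 4.24 and 5.84 for AIL1 and lay between 3.28 and 3.45 for the 3 probes of PLT5. The 2 probes of PLT1 gave -1.68 and -1.08. These differences are on another scale than those of RMA signals, which are background-corrected. In siFIE the AIL1 probes differed from each other, at 1.38 and 3.39, and the 3 PLT5 probes ranged from 0.05 to 0.72. For BBM all 3 probes were slightly lower in siFIE than in Col, from -0.39 to -0.09.

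**Figure D3:**
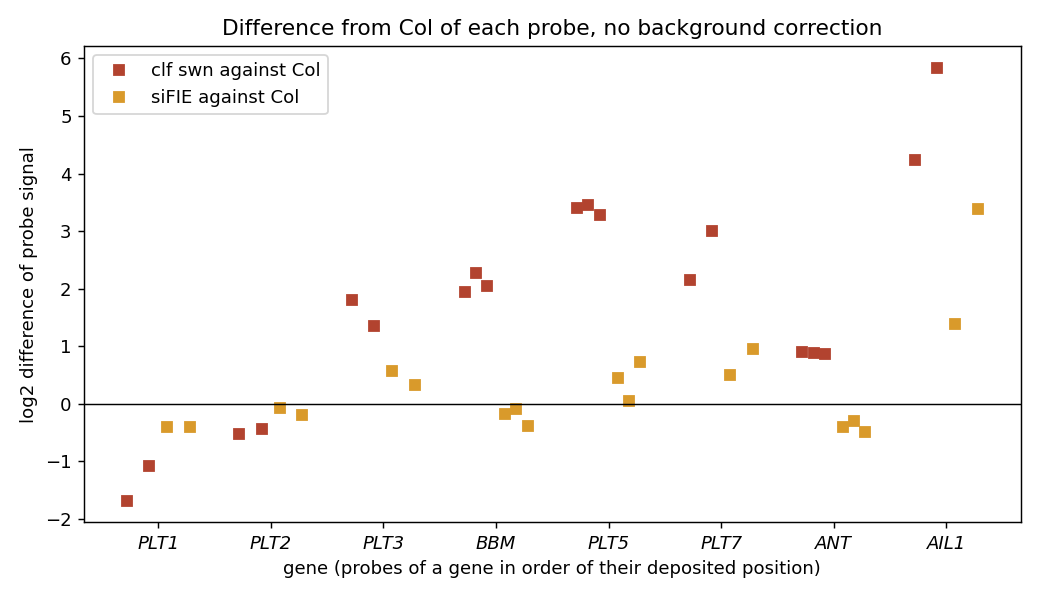
Log2 difference of probe signal from Col (vertical axis, quantile normalised without background correction) for each of the 2 or 3 probes of the 8 genes, with 1 square per probe for clf swn and for siFIE. The squares of a gene and genotype lie on the same side of 0, and the clf swn squares of PLT5 lie within 3.28 to 3.45.

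The maintenance of the root stem cell niche, in which PLT1 and PLT2 act, involves further regulators. This list and those below were chosen with earlier results of these data known. Of 16 listed genes 3 rose and 4 fell in clf swn, with a median log2 change of -0.28, and 1 fell in siFIE. Among all genes 8.78% were called as higher and 12.8% as lower in clf swn. The shares in siFIE were 4.51% and 3.19%. WOX5, the homeobox gene of the quiescent centre, rose with a log2 change of 1.91 (adjusted p = 6.8e-05). The peptide gene CLE40 and its receptor kinase gene ACR4 rose by 1.80 and 1.22 on the log2 scale. The CLE40 call was lost in all 3 summaries made from probe signals (log2 0.47 to 0.92). RGF3, which encodes a peptide of the group known to maintain PLT protein levels in the root, fell by 2.33 on the log2 scale, and UPB1, a regulator of the transition to differentiation, fell by 1.53. The loci AT5G48940 and AT4G26540 fell by 1.92 and 2.08, and AT4G26540 also fell in siFIE, by 1.21. SHR and SCR, which position the niche, were not called in clf swn (log2 0.20 and 0.58) or in siFIE (log2 -0.27 and -0.15).

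Most markers of root tissue moved with PLT1. Of 12 markers of root and root hair 9 fell in clf swn, with a median log2 change of -1.56, and 1, RSL4, fell in siFIE, with a median of -0.39. Over the array 12.8% of genes were called as lower in clf swn and 3.19% in siFIE. RHD6 went the other way in clf swn (log2 0.48) and was not called. The RSL4 call in siFIE and the GL2 call in clf swn (log2 -1.12) were lost in all 3 summaries made from probe signals. CASP1, a marker of the endodermis, fell by 1.92 and EXPA18, a root hair expansin, by 2.16 in clf swn. The summed signal of the 12 was 16302 to 22504 in clf swn, 41132 to 56827 in siFIE and 62999 to 71465 in Col. Bright genes weigh most in such sums, here and below. The Col means were 16523 for PHO1 and 15763 for LRX1, against 132 for WER. Of 4 root cap markers FEZ fell in clf swn, by 1.23 (not called in those summaries), with summed signals of 1407 to 1554 in clf swn, 1579 to 1965 in siFIE and 1584 to 2096 in Col. No marker was at 0. The part of a change in root tissue in the PLT1 result was not tested.

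Auxin supply and transport, which sets where PLT genes are active, was measured through 21 genes. In clf swn 5 rose and 7 fell (median -0.29), and in siFIE 4 fell (median -0.23). Over the array 8.78% of genes were called as higher and 12.8% as lower in clf swn, and 3.19% as lower in siFIE. The auxin synthesis genes YUC4 and YUC1 rose in clf swn with log2 changes of 5.26 (adjusted p = 5.7e-08) and 4.18 (adjusted p = 1.5e-06), and gave 0.44 and 0.29 in siFIE, where neither was called. YUC2, of the same family, fell by 3.73 in clf swn and by 2.31 in siFIE, where the call was lost without background correction (log2 -0.95). The efflux carrier genes PIN3 and PIN4 fell in clf swn, by 2.04 and 1.54, and in siFIE, by 1.64 and 1.26. The decrease of PIN7 was at the threshold in both mutants (log2 -1.01 in clf swn and -1.0 in siFIE), and its call was lost in 6 of the alternatives in each. Without background correction 3 of the 21 were called as higher in clf swn in place of 5, with MP and TAA1 under the fold threshold. The influx carrier gene LAX2 was called as lower in siFIE in all 3 summaries made from probe signals (log2 -1.12 to -1.02), though not by RMA (log2 -0.64).

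Most embryo regulators rose alongside BBM. In clf swn 12 of 15 rose and none fell (median 3.73), on a list chosen with earlier results of these data known. Over the array 8.78% of genes were called as higher in clf swn and 4.51% in siFIE. L1L rose by 7.24, ABI3 by 9.42, CUC1 by 6.27 and FUS3 by 5.84 on the log2 scale. The AHL15 call in clf swn (log2 1.09) was lost in the quantile-scaled summaries of probe signals, with normexp (log2 0.97) and without background correction (log2 0.95). It was also lost without clf swn replicate 1 (log2 0.98) or replicate 3 (log2 0.97). In siFIE 5 of the 15 rose (median 0.17), namely WOX9 (log2 4.84), ABI3 (3.27), WOX2 (2.52), CUC1 (2.09) and LEC2 (1.51), and the LEC2 call was lost in all 3 summaries made from probe signals (log2 0.28 to 0.44), as was that of CUC1 without background correction (log2 0.90). LEC1 and FUS3, whose products act upstream in embryo maturation, gave 0.09 and -0.78 in siFIE and were not called, although FUS3 was called as lower without the third Col array (log2 -1.06). AGL15 gave -0.88 in siFIE and was not called, but was called as lower without siFIE replicate 1 (log2 -1.01). The 7 markers of maturing embryos, seed storage and oil body genes among them, all rose in clf swn, with summed signals of 307883 to 327608 in clf swn, 3792 to 5618 in siFIE and 562 to 675 in Col, and 5 of them rose in siFIE, where the OLEO1 call was lost in all 3 summaries made from probe signals (log2 0.59 to 0.83). OLEO1 gave the same signal, 63918.9, on all 3 clf swn arrays, so that the summed clf swn signal may be capped. The part of embryo-type cells in the BBM result was not tested.

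Shoot growth regulators, the setting of ANT and of PLT3 and PLT7 at the apex, rose in part. Of 14 listed genes 5 rose in clf swn (median 0.86) and 2 in siFIE (median -0.06), and none fell. Over the array 8.78% of genes were called as higher in clf swn and 4.51% in siFIE. WUS, the organiser gene of the shoot meristem, rose by 4.66 in clf swn and by 1.29 in siFIE, and STM, which keeps the meristem undifferentiated, by 3.85 in clf swn and by 1.53 in siFIE. The cyclin gene CYCD3;2 was just under the fold threshold in clf swn (log2 0.99). The call of WUS in siFIE was lost in all 3 summaries made from probe signals (log2 0.44 to 0.73). That of STM in siFIE was lost in the one without background correction (log2 0.98), where AN3 was also not called in clf swn. The DRNL call in clf swn was lost in all 3 (log2 0.33 to 0.64). The 5 flower markers rose in both mutants, with summed signals of 38210 to 39898 in clf swn, 22903 to 31925 in siFIE and 573 to 671 in Col. Since ANT and PLT3 are also active in flowers, these values stand beside theirs, and the part of floral tissue was not tested.

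**Figure D4:**
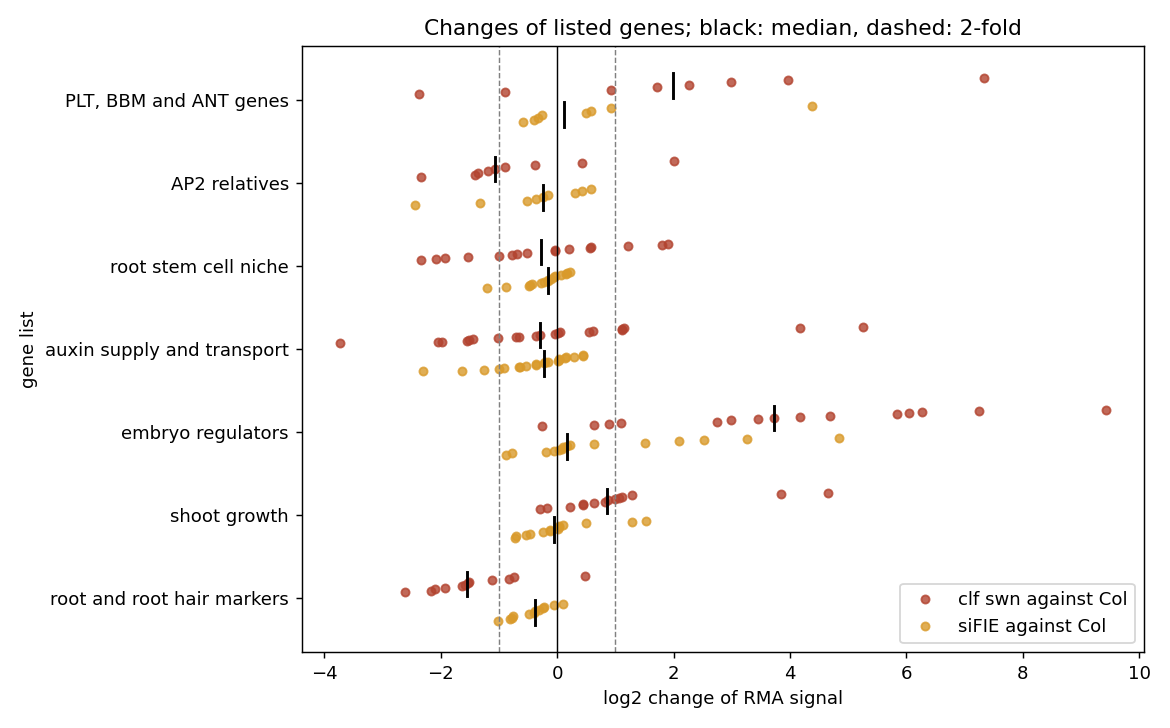
Log2 change of RMA signal against Col (horizontal axis) for the 8 genes and 6 lists of related genes (vertical axis), with a dot per gene for clf swn and siFIE, a black bar for each median and dashed lines at 2-fold. Of the plotted groups the embryo regulators have the highest clf swn median (3.73), the root and root hair markers the lowest (-1.56), and the PLT, BBM and ANT genes 1.99.

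Other AP2-type genes were also measured. Of 9 relatives 1 rose and 5 fell in clf swn (median -1.06), and 2 fell in siFIE (median -0.25). Over the array 8.78% of genes were called as higher and 12.8% as lower in clf swn, and 3.19% as lower in siFIE. WRI1, the activator of oil synthesis in seeds, rose with a log2 change of 2.01 in clf swn (adjusted p = 1.2e-06) and gave -0.15 in siFIE. The floral repressor genes SNZ and TOE1 fell in both mutants, SNZ by 2.34 in clf swn and by 2.44 in siFIE, and TOE1 by 1.35 in clf swn and by 1.33 in siFIE. TOE2 fell by 1.41 in clf swn. AP2 itself was not called (log2 0.43 in clf swn and 0.59 in siFIE). The calls of TOE3 and WRI3 in clf swn (log2 -1.18 and -1.06) were lost in all 3 summaries made from probe signals. As a further background, none of 6 reference genes was called (1 of them, ACT2, had an unadjusted p under 0.05, in clf swn), and their log2 changes lay between -0.25 and 0.15 in clf swn and between -0.14 and 0.15 in siFIE.

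For each of the 7 members called in at least 1 comparison, the genes with the most similar pattern were taken by Pearson's r of log2 signal over the 9 arrays, among 8232 genes whose genotype means spanned more than 1 on the log2 scale. The 9 arrays share 3 genotypes, so these values chiefly describe the order and spacing of 3 means. PLT5 was closest to ZFHD1 (r = 0.9986) and to LBD40 (r = 0.9978), which had log2 changes of 4.05 in clf swn and 0.81 in siFIE. AIL1 was closest to AT2G30680 (r = 0.9992) and to REM1 (r = 0.9991), which changed by 6.94 in clf swn and by 4.19 in siFIE. BBM was closest to AT3G48980 (r = 0.997) and to the cytokinin oxidase gene CKX1 (r = 0.9969), PLT3 to LPR1 (r = 0.9969), PLT7 to AT4G36925 (r = 0.9955) and PLT1 to CCL (r = 0.9965). ANT had less close neighbours, with SULTR3;4 first (r = 0.9846). The pattern of AIL1, a rise in both mutants that was larger in clf swn, was thus shared with other genes of the array.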

How the data were processed

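The authors deposited the probe intensities of each array on a linear scale (NimbleScan 2.4.31, 60-base probes) and an RMA intensity per gene, also linear. How RMA was run (software, settings) is not given in the sources used here, and the series table holds the same values as the files of the arrays. Probe intensities had medians of 1213 to 2370.1 per array, and the number of arrays limits the precision. Log2 RMA intensities of 30361 genes went into limma 3.58.1 under R 4.3.3 (3 group means over 9 arrays, lmFit and eBayes, two-sided). Adjusted p-values are Benjamini-Hochberg over all genes, and calls need adjusted p under 0.05 and more than 2-fold. Python 3.11.15, numpy 2.4.6, pandas 2.3.3 and matplotlib 3.10.9 made the summaries. On simulated data, 26% of 2-fold and 92% of 3-fold changes were recovered for clf swn and 34% and 80% for siFIE, with 50 changed genes of each size among 30361. The simulated 2-fold changes lay at the fold threshold itself, so their recovery was limited by that threshold as well as by the spread.

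Members and lists were chosen with earlier results of these data known. Besides the members, FIE, CLF and SWN, the named genes are up to 3 per list and comparison with the smallest p and the 3 nearest patterns of each called member. Others, such as WOX5, UPB1, SHR, SCR, LEC1, WOX2 and PIN7, spell out small counts or complete a pathway and were added once their values were known. Of 119 listed genes 113 had their symbol in the TAIR10.1 annotation. The other 6 are given by locus. Replicate numbers were not shown to pair the samples (correlations of same-numbered deviations -0.164 to 0.169). Alternatives were 3 summaries of probe intensities (normexp with offset 50 and quantile or median scaling, and quantile without background correction), renormalised RMA, the series table, a filter at the 25th percentile of signal, only the 2 groups compared, replicate block, each array left out, unadjusted p and no fold threshold. No source used here names a slide shared by arrays, so slide was not a block. Promoter, probe and protein sequences were not used here.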

Additional observations from a re-analysis of the deposited data

Results flagged for a closer look

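For 7 of the 8 genes the change in clf swn differed from the change in siFIE by a called limma test of clf swn against siFIE. The log2 change in clf swn minus that in siFIE was 3.38 for PLT5, 2.96 for AIL1, 2.60 for BBM, 2.07 for PLT7, 1.31 for ANT, 1.21 for PLT3 and -1.78 for PLT1, with adjusted p between 3.7e-07 for PLT5 and 9.3e-05 for ANT. For BBM and ANT the changes had opposite signs, at 2.27 in clf swn and -0.33 in siFIE for BBM and at 0.92 in clf swn and -0.39 in siFIE for ANT, and neither siFIE change passed the threshold.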

How the results depend on the processing

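The counts of members called, 6 in clf swn against Col, 1 in siFIE against Col and 7 in clf swn against siFIE, stayed within 1.5 times under the alternatives other than those given here. With no fold threshold 5 members were called in siFIE against Col. Not all of these kept a limma adjusted p under 0.05 in the other alternatives. It was 0.124 for PLT1 and 0.1 for PLT5 without Col replicate 2. For PLT3 it was 0.0597 without siFIE replicate 3. With the fold threshold, leaving out each array gave 1 to 2 called members in siFIE against Col. The 2 arose without Col replicate 1 and without siFIE replicate 3, where PLT7 was also called. No member changed direction. Of the log2 changes of members under the alternatives 402 stayed on their side of the threshold and 6 did not. PLT2 in clf swn was called without Col replicate 2 (-1.02), ANT in clf swn without Col replicate 1 and with normexp and median scaling (1.00 in both), and PLT7 as above. PLT1 in clf swn against siFIE lost its call without background correction (-0.97). With replicate number as a block the counts of members stayed at 6, 1 and 7, and the array-wide counts were 2664 higher and 3878 lower in clf swn and 1361 and 956 in siFIE, against 2666 and 3896 in clf swn and 1370 and 968 in siFIE without the block. The numbers were not shown to pair the samples.

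In summaries that took the mean of probe signals without background correction, all-gene counts were 1571 higher and 2364 lower in clf swn, 683 and 443 in siFIE, and 1170 and 1862 in clf swn against siFIE, where RMA gave 2072 and 3349. By RMA without a fold threshold the all-gene counts were 7336 higher and 6887 lower in clf swn, and 3102 and 3047 in siFIE. They were 6332 and 6281 in clf swn against siFIE. With normexp background correction the mean of probe signals gave 939 higher and 612 lower in siFIE by quantile scaling and 863 and 640 by median scaling, and 1947 and 2886 in clf swn by quantile scaling. Between RMA and the uncorrected probe means, background correction and summary changed together. The quantile-scaled probe means with and without normexp differed in background correction alone. The cause of the shifts between summaries was not tested.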
